A study of Homo sapiens with 8 samples.

Results

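The genes described here control entry into the cell cycle and the number of times a cell can divide: the D-type cyclins CCND1, CCND2 and CCND3, the kinases CDK4 and CDK6, the inhibitors CDKN1B, CDKN2A and CDKN2B, the retinoblastoma gene RB1 and the telomerase gene TERT. These 10 genes were chosen by name and not by a rule on measured values, from 19663 protein-coding genes with an annotated start on chromosomes 1 to 22, X and Y. Earlier results of these data were known when they were chosen. Every H3K27ac peak that touched the GENCODE body of a gene (hg38) or the 30 kb on either side was taken. After peaks that overlapped or touched in any of 6 peak lists were merged, the windows of the 10 genes held 170 of 143733 intervals.

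The 6 H3K27ac ChIP-seq libraries came from HCEC-1CT, an established line of human colonic epithelial cells, as 3 WT and 3 CREBBP-KO libraries. CREBBP encodes an acetyltransferase of histone H3 lysine 27 that has a close paralogue, EP300, and the WT cells were the parental line. All 6 libraries share a doxycycline-inducible Cas9, a medium with 20 nM hEGF, insulin, hydrocortisone and serum, and, per the study, immortalization by expressed CDK4 and hTERT, so that every library can hold DNA of added copies of CDK4 and TERT. The methods call the CREBBP-KO cells monoclonal and elsewhere describe final populations pooled from several clones, with matched parental subclones. Genotype and clone therefore cannot be told apart, and the p-values below measure the spread between these libraries.

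In a resting cell the RB1 protein holds E2F transcription factors at the promoters of S-phase genes. Growth signals raise the D-type cyclins, which bind CDK4 or CDK6 to phosphorylate RB1, while p27 (CDKN1B), p16 (CDKN2A) and p15 (CDKN2B) restrain these kinases. CDKN2A also encodes ARF, another growth-restraining protein, from an upstream first exon, and TERT, silent in most somatic cells, encodes the catalytic subunit of telomerase. Acetylation of histone H3 at lysine 27 (H3K27ac) marks active promoters and enhancers.

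Each list gave a fold for every peak, the height at its summit over the local background. The CREBBP-KO lists were longer and flatter, with 99008 to 111697 peaks of median fold 4.02 to 4.10 against 86163 to 93567 peaks of median fold 4.32 to 4.46 in WT. Folds are therefore given with their percentile within the list, where 100 is the highest peak of that library. Depth is unknown, since the lists hold no counts. As to cell type, EPCAM and KRT8 had a promoter peak in all 6 libraries, KRT18 in 3 WT and 2 CREBBP-KO libraries, and CDH1 and KRT19 in none. Among intestinal markers MUC2 had one in all 6 libraries, and CDX1, CDX2, VIL1, HNF4A, KRT20 and LGR5 had none. All 4 mesenchymal markers (VIM, CDH2, ZEB1 and COL1A1) had one in all 6 libraries, at higher percentiles in every CREBBP-KO than in every WT library. The same held for 45.0% of the 12142 protein-coding genes with a promoter peak in all 6 libraries. WT percentiles of CDH2 were 52.0 to 63.6 against 74.3 to 81.5 for CREBBP-KO, and those of COL1A1 were 97.6 to 98.9 against 99.8 to 99.9. The epithelial markers EPCAM (0.17 to 8.36 against 19.7 to 46.1) and KRT8 (32.9 to 57.7 against 59.5 to 73.5) and the goblet cell marker MUC2 (51.1 to 55.4 against 82.4 to 86.4) were higher as well. KRT18 was not, with the same WT percentiles as KRT8 against 54.2 and 34.6 in CREBBP-KO replicates 1 and 3. The part of these markers in the results below was not tested. The blood markers PTPRC and CD3E had none. A peak list of this mark cannot check the knockout of CREBBP itself.

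All 10 genes had a promoter peak, within 1 kb of a protein-coding transcript start, in all 6 libraries. RB1 ranked first in WT and CDKN1B in CREBBP-KO cells, and TERT ranked last in both. The promoter percentiles of CDK4 and CDKN1B were higher in every CREBBP-KO library than in every WT library, and those of CCND3, CDKN2A and RB1 were lower. For CCND3 this value came from the interval shared with the TAF8 start, and at its canonical start the libraries overlapped. Of the 12142 protein-coding genes with a promoter peak in all 6 libraries, 45.0% lay higher in CREBBP-KO without overlap and 7.71% lower, so that 2 of 10 genes higher and 3 of 10 lower stand against an uneven background. With lists cut to equal length CDK4 was no longer separated (p = 0.2 by the same exact permutation test as below). Ranked by -log10 p in place of fold, CDK4 (exact permutation p = 0.3), CDKN2A (p = 1) and RB1 (p = 0.7) were not. For a single promoter the exact permutation test was two-sided, and with 3 libraries a side it cannot give a p under 0.1.

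In WT the order of mean percentiles was RB1, CCND1, CDKN2A, CCND2, CCND3, CDKN1B, CDK6, CDKN2B, CDK4 and TERT. Only RB1 and CCND1, CDK6 and CDKN2B, and CDK4 and TERT were neighbours whose libraries did not overlap. In CREBBP-KO cells the order was CDKN1B, CDK6, RB1, CCND1, CCND2, CDKN2A, CCND3, CDK4, CDKN2B and TERT. There, CCND2 and CDKN2A, and CDKN2B and TERT, were the neighbours that did not overlap.

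Heights of intervals were compared by rank. An interval was tested where all 6 libraries had a peak and all 3 libraries of a genotype reached a fold of at least 5, which held for 34864 intervals and for 55 of the 170 in the gene windows. Of the other 115 member intervals, 17 had a peak in all 6 libraries under this fold and 98 lacked one in some library. Ranks were turned into normal scores, so that a shift of 1 is 1 SD of the ranking, and fitted with limma, with Benjamini-Hochberg adjustment over all 34864 intervals. Of the 55, 15 passed the fold filter in 1 genotype alone and 5 of these were called. A called interval of this kind was admitted by the genotype in which it was high, so its shift is a description and its value without the filter is given beside it. At an adjusted p under 0.05, CREBBP-KO cells had 10 window intervals that ranked higher and 10 that ranked lower, where 18.6% of all tested intervals were called higher and 18.7% lower. The share called in the windows was thus close to that of the genome.

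Called intervals at gene starts were mostly higher and distal ones mostly lower, in the windows and over the genome. Of 24 tested intervals at the start of a coding gene, 8 ranked higher and 3 lower, against 25.9% and 8.98% of all 11570 such intervals. Of 31 distal intervals 2 ranked higher and 7 lower, against 14.9% and 23.6% of 23294. The median shift was 0.16 at starts and -0.14 at distal sites in the windows, and 0.20 and -0.10 over all intervals. With log2 folds in place of ranks and no centring, the median shift of all intervals was 0.13 in log2 units. The calls over all intervals then went from 6472 higher and 6533 lower to 9754 and 4571. In the windows the same setting called 10 higher and 7 lower. Ranked by -log10 p, 4 were called higher. The number called higher fell from 10 to 5 without CREBBP-KO replicate 2 and to 6 without CREBBP-KO replicate 3.

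The cyclin promoters CCND1 and CCND2 were high in both genotypes and their libraries overlapped. CCND1, the cyclin most often amplified in epithelial tumours, had promoter folds of 21.0, 14.8 and 17.8 in WT and 16.6, 21.0 and 21.1 in CREBBP-KO. Its mean percentile was 96.2 ± 2.00 in WT and 96.5 ± 1.13 in CREBBP-KO (SD, n = 3, exact permutation p = 0.9). CCND2, which binds the same kinases, had folds of 16.6, 17.9 and 16.6 in WT and 16.1, 22.8 and 18.3 in CREBBP-KO. The rank shifts were -0.07 for CCND1 (95% interval -0.44 to 0.29) and -0.06 for CCND2 (-0.42 to 0.30).

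Upstream of CCND1, a distal interval 4.30 kb from the start (chr11:69635985-69637238, outside any annotated gene) ranked lower in CREBBP-KO cells. Its folds were 6.43, 7.88 and 9.83 in WT and 4.98, 5.08 and 5.35 in CREBBP-KO. Every CREBBP-KO library lay below every WT library, and the shift was -1.19 ± 0.29 (SE, limma adjusted p = 0.0029). It passed the fold filter through WT alone, and with no fold filter the shift was -0.71 (limma adjusted p = 0.013). The promoter interval beside it (chr11:69637864-69645994) thus showed no such shift, although the difference between these neighbours was not tested.

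The other called intervals of the CCND1 and CCND2 windows were starts of neighbouring genes. The start of LTO1 (chr11:69673206-69675870), which encodes a protein of iron-sulfur cluster assembly, had folds of 12.4, 13.8 and 14.6 in WT and 17.3, 19.3 and 20.7 in CREBBP-KO, with a shift of 0.42 ± 0.16 (SE, limma adjusted p = 0.049). This call was lost under 10 of 14 alternatives, among them the fits without WT replicate 1 or 2 and without each CREBBP-KO replicate. The start of TIGAR (chr12:4319886-4323954), a fructose bisphosphatase, had folds of 14.6, 13.7 and 14.3 in WT and 24.2, 22.1 and 19.6 in CREBBP-KO. All 3 CREBBP-KO libraries lay above WT there, with a shift of 0.60 ± 0.17 (SE, limma adjusted p = 0.0075), and the call was lost without CREBBP-KO replicate 1 and when ranked by -log10 p (shift 0.19, limma adjusted p = 0.34).

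CCND3, a D-type cyclin best known from lymphocytes, has annotated starts in 2 places 107 kb apart. At the canonical start (chr6:41934809-41943409) the folds were 6.14, 8.69 and 7.87 in WT and 8.20, 7.30 and 7.57 in CREBBP-KO, at percentiles of 67.6 to 80.9. These libraries overlapped, and the shift was -0.03 (95% interval -0.55 to 0.50). The far start lies in an interval that also holds the start of TAF8, a TFIID subunit (chr6:42043426-42052036), where the folds were 17.5, 17.0 and 16.1 in WT and 13.5, 15.0 and 13.9 in CREBBP-KO. Its summit lay in TAF8 in all 6 libraries, 285 to 374 bp past the outermost CCND3 start. This interval ranked lower, by -0.56 ± 0.16 (SE, limma adjusted p = 0.0082), and the call was lost with uncentred log2 folds (-0.26, limma adjusted p = 0.11). Hence the CCND3 value in the plot of promoter folds is that of the shared TAF8 end. In all libraries but WT replicate 1, a separate peak covered the other far CCND3 starts. Its folds were 9.05 and 9.74 in WT replicates 2 and 3 and 11.7, 10.8 and 8.97 in CREBBP-KO, which overlapped.

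Further intervals of the CCND3 window ranked higher. The shared start of MED20, a Mediator subunit, and BYSL, a ribosome assembly factor (chr6:41916228-41924057), had folds of 13.2, 13.0 and 13.9 in WT and 20.1, 18.3 and 23.2 in CREBBP-KO, with a shift of 0.59 ± 0.16 (SE, limma adjusted p = 0.0075). That call was lost without CREBBP-KO replicate 3 and when ranked by -log10 p (shift 0.03, limma adjusted p = 0.89). A distal interval 35.7 kb upstream of the canonical start (chr6:41975131-41979020, within the longer CCND3 transcripts) had folds of 6.50, 4.95 and 4.51 in WT and 7.21, 8.28 and 8.57 in CREBBP-KO. Its shift was 0.91 ± 0.28 (SE, limma adjusted p = 0.015), lost without CREBBP-KO replicate 2 or 3. It passed the fold filter through CREBBP-KO alone, and with no fold filter the shift was 0.60 (limma adjusted p = 0.032). Of the 178 runs of 24 bases in the 201 bases around its summit, only 12.9% occurred once in hg38 and the median run occurred 251 times, so reads there can be shared with other copies.

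CDK4, a kinase partner of the D-type cyclins and a known MYC target, had a promoter interval at chr12:57750659-57753042. The promoter sequence follows because it holds 3 E-boxes, the site bound by MYC; it was taken from RefSeq on GRCh38.p14 (chr12:57752261-57752560, minus strand, from 250 bases before the start to 50 after it). Capitals in this and the other sequences mark matches, on either strand, to 7 motifs: AP-1 (TGANTCA), CRE (TGACGTCA), a shortened CRE (TGACG, which also lies within the full CRE), E2F (TTTNGCGC), E-box (CACGTG), TEAD (GGAATG) and the GC box (GGGCGG).

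CDK4 promoter: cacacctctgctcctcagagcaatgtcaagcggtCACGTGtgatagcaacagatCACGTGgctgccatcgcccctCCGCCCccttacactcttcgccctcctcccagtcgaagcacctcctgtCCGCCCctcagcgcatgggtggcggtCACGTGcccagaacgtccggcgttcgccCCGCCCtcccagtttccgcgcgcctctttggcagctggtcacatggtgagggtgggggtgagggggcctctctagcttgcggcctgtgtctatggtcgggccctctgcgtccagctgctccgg

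Of 34943 RefSeq promoters of this length, 7.23% held an E-box and 44.9% a GC box, and the CDK4 promoter also had 3 GC boxes. The folds of the CDK4 promoter were 10.2, 11.0 and 11.8 in WT and 13.7, 13.5 and 12.8 in CREBBP-KO. Its percentiles were 84.5, 87.2 and 87.8 in WT and 92.1, 90.7 and 88.6 in CREBBP-KO, with no overlap (exact permutation p = 0.1). With lists of equal length the mean difference went from 3.96 to 2.71 points and the separation was lost (exact permutation p = 0.2). The rank shift among tested intervals was 0.18 (95% interval -0.18 to 0.54, limma adjusted p = 0.43), so CDK4 did not pass the test across intervals. Peaks over CDK4 exons 6 and 7, which lie apart from the promoter peak, were called in WT replicate 2 and in CREBBP-KO replicates 1 and 3, at folds of 2.52 to 3.44. The part of the added CDK4 copy in these values was not tested.

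A second interval of CDK4 ranked higher in CREBBP-KO cells. It covers the start of MARCHF9, a membrane ubiquitin ligase, on the opposite strand and the start of a longer CDK4 transcript (chr12:57754851-57756016), with a summit 2.91 kb upstream of the canonical start. Folds there were 5.19, 3.91 and 5.50 in WT and 6.36, 8.59 and 6.80 in CREBBP-KO, and the libraries did not overlap. The shift was 0.88 ± 0.30 (SE, limma adjusted p = 0.027), lost without WT replicate 2 and without CREBBP-KO replicate 2 or 3. This interval passed the fold filter through CREBBP-KO alone, and it was also lost with no fold filter (shift 0.61, limma adjusted p = 0.054) or a fold of at least 3 (0.63, limma adjusted p = 0.054). The other 4 tested intervals of the CDK4 window, at the starts of TSPAN31, METTL1 and TSFM and 25.9 kb downstream, did not pass.

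CDK6, the other cyclin D kinase, had the richest window, with 60 of the 170 intervals, of which 23 had a peak in all 6 libraries. Peaks covered 28.0% to 36.4% of its 292 kb. Among the 17 intervals tested, 2 ranked higher and 2 lower. Peak numbers were 42, 44 and 32 in WT and 63, 50 and 49 in CREBBP-KO, without overlap (exact permutation p = 0.1). The covered length overlapped, at 93.2, 96.3 and 81.8 kb in WT and 93.2, 103 and 106 kb in CREBBP-KO (exact permutation p = 0.2).

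The promoter of CDK6 is printed because its interval ranked higher in CREBBP-KO cells (RefSeq, GRCh38.p14, chr7:92836524-92836823, minus strand).

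CDK6 promoter: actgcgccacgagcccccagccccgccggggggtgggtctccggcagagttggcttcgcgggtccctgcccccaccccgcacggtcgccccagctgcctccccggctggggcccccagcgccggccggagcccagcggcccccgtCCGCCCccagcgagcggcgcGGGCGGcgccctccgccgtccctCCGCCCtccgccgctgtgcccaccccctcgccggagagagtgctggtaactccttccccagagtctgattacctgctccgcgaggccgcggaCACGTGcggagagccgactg

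Its 300 bases were 78.0% G or C and held 3 GC boxes and 1 E-box, which lies downstream of the start. The promoter interval (chr7:92828217-92837654) had folds of 14.9, 17.3 and 15.9 in WT and 23.2, 26.1 and 20.0 in CREBBP-KO, and the folds did not overlap. The percentiles were 93.6, 96.7 and 94.6 in WT and 98.6, 98.9 and 96.4 in CREBBP-KO, which overlapped (exact permutation p = 0.2). The summit lay 3.74 to 3.85 kb downstream of the canonical start in all 6 libraries, outside the printed promoter and 1085 to 1196 bp past a second annotated start. The shift was 0.46 ± 0.18 (SE, limma adjusted p = 0.045), and 7 of 14 alternatives lost the call, among them the fits without WT replicate 1 or 3 and without CREBBP-KO replicate 1 or 2.

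Within the introns of CDK6, the strongest distal interval in WT ranked lower in CREBBP-KO cells. It lies in intron 2, with its summit 26.97 kb downstream of the start (chr7:92807469-92814587). Folds were 17.2, 18.5 and 15.7 in WT and 11.9, 12.2 and 11.5 in CREBBP-KO, a mean of 17.1 ± 1.40 against 11.9 ± 0.37 (SD, n = 3). Percentiles of 94.3 to 97.5 in WT stood against 86.2 to 89.3 in CREBBP-KO, with no overlap. Its shift was -0.89 ± 0.17 (SE, limma adjusted p = 0.00038) and passed under all 14 alternatives. The neighbouring promoter, 23 kb away, thus lay above and this site below WT in every CREBBP-KO library by fold.

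A second lower interval lay in intron 5, with its summit 169 kb downstream (chr7:92664917-92671489). Its folds were 8.22, 9.89 and 9.45 in WT and 7.19, 6.67 and 6.74 in CREBBP-KO, and the shift was -0.68 ± 0.23 (SE, limma adjusted p = 0.025). This call was lost under 5 of 13 alternatives, namely without WT replicate 2 or 3, without CREBBP-KO replicate 2 or 3 and when ranked by -log10 p. In intron 4, 114 kb downstream, an interval ranked higher (chr7:92720948-92724667), with folds of 6.92, 7.31 and 8.67 in WT and 10.8, 14.1 and 10.9 in CREBBP-KO. The libraries did not overlap, and the shift was 0.71 ± 0.22 (SE, limma adjusted p = 0.013), lost without WT replicate 1, without CREBBP-KO replicate 2 and when ranked by -log10 p (0.49, limma adjusted p = 0.053).

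The 201 bases around the highest summit of the intron 2 interval (hg38, plus strand) are printed because this site was called lower under every alternative.

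CDK6 intron 2, chr7:92809501-92809701, lower: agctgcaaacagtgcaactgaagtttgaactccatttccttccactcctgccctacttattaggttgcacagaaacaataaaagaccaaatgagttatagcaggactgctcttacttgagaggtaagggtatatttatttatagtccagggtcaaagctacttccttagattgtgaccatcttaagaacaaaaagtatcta

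This window held none of the 7 motifs, which occurred in 0.043% (CRE) to 11.1% (TEAD) of 23277 distal summit windows of the same length. All its 178 runs of 24 bases occurred once in hg38. Around the summit of the higher intron 4 interval 15.7% did so, with a median of 120.5 copies and at most 127185, so reads at that summit can be shared with other copies. The highest peak of a library had its summit inside the printed window in 5 of 6 libraries. Thus both distal intervals called higher in the windows, in CDK6 and CCND3, had their summit in sequence of many copies.

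**Figure D1:**
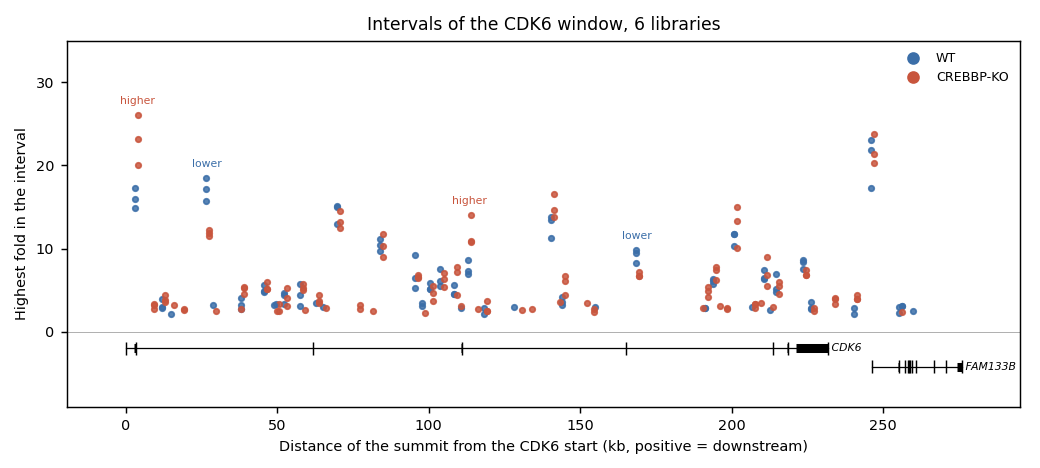
Highest fold of every interval in the CDK6 window, plotted at the distance of its summit from the CDK6 start in kb (blue, WT; red, CREBBP-KO; groups drawn 1 kb apart so that points do not hide each other). Black bars below are exons of canonical transcripts, and called intervals are labelled; the promoter (20.0 to 26.1 in CREBBP-KO) lies above WT and the interval at 26.97 kb (11.5 to 12.2 in CREBBP-KO) below it.

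The 13 uncalled CDK6 intervals had shifts from -0.53 to 0.41. They included the start of FAM133B, the gene next to CDK6, at folds of 17.3 to 23.8, and intronic sites as strong as those called. At 141 kb downstream (chr7:92693940-92701242) folds spanned 11.2 to 13.8 for WT and 13.8 to 16.6 for CREBBP-KO. At 70.3 kb (chr7:92761263-92770486) the span was 12.9 to 15.1 for WT and 12.5 to 14.6 for CREBBP-KO, and the groups overlapped.

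CDKN1B, which encodes the kinase inhibitor p27, showed the highest CREBBP-KO promoter value of the 10 genes. The folds were 14.4, 16.8 and 20.1 in WT and 31.2, 24.9 and 28.3 in CREBBP-KO, a mean of 17.1 ± 2.83 against 28.2 ± 3.16 (SD, n = 3). The percentiles were 93.0, 96.3 and 97.9 in WT and 99.7, 98.6 and 99.2 in CREBBP-KO, without overlap (exact permutation p = 0.1). The interval (chr12:12713783-12739173) ranked higher, by 0.76 ± 0.19 (SE, limma adjusted p = 0.0041), under all 14 alternatives.

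CDKN1B promoter: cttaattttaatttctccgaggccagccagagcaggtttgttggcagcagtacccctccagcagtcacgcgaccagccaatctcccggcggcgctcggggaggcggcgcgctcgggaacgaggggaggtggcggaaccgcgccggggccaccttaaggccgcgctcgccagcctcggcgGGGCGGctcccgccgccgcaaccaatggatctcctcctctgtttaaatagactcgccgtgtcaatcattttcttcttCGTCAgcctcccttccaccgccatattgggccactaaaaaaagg

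This promoter (RefSeq, GRCh38.p14, chr12:12717118-12717417, plus strand) is printed because the highest summit lay away from it in all libraries but CREBBP-KO replicate 3. It held 1 GC box and 1 shortened CRE, which 24.5% of promoters hold. The peak over the start was 12.0 to 16.7 kb wide, and in 5 libraries its summit lay 7.09 to 7.66 kb downstream of the start, past the end of CDKN1B and before the APOLD1 start at 12725931. In CREBBP-KO replicate 3 the summit was 286 bp downstream of the CDKN1B start. In all 6 libraries the peak also covered the APOLD1 start. The value is that of the whole acetylated stretch, and how far the CDKN1B start itself differed cannot be read from the lists.

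Peaks around CDKN1B also covered more sequence in every CREBBP-KO library than in every WT library. Peaks covered 24.1, 26.5 and 25.3 kb of its window in WT and 30.1, 30.1 and 31.5 kb in CREBBP-KO, without overlap (exact permutation p = 0.1). Covered length was apart in other windows too, higher in CREBBP-KO for CCND3 and TERT and lower for CDKN2B (exact permutation p = 0.1 for each). How often the windows of other genes are apart in this way was not tested, for CDKN1B or for these genes. The start of GPR19, an orphan receptor (chr12:12695751-12697626), 20.9 kb upstream, ranked higher as well, with folds of 12.3, 11.2 and 11.0 in WT and 16.6, 17.2 and 19.1 in CREBBP-KO and a shift of 0.59 ± 0.16 (SE, limma adjusted p = 0.0072). Ranked by -log10 p, the GPR19 shift was 0.17 (limma adjusted p = 0.37) and the call was lost. These 2 intervals, both at coding starts, were the only ones tested in the CDKN1B window, and both passed. Over all tested intervals at coding starts 25.9% were called higher. A small interval 13.0 kb upstream of the canonical CDKN1B start (chr12:12703965-12704637) was called in each CREBBP-KO library, at folds of 5.59, 4.86 and 4.54, and in none of WT. This interval and the GPR19 start lie within the GENCODE body of CDKN1B.

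CDKN2A and CDKN2B, which encode the INK4 inhibitors of CDK4 and CDK6, share a cluster on chromosome 9. None of the 7 intervals tested there ranked higher, and 3 of the 6 in the CDKN2B window ranked lower. Over all tested intervals 18.6% were called higher and 18.7% lower. The p16 promoter is printed because its interval was called lower (RefSeq, GRCh38.p14, chr9:21974808-21975107, minus strand).

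CDKN2A p16 promoter: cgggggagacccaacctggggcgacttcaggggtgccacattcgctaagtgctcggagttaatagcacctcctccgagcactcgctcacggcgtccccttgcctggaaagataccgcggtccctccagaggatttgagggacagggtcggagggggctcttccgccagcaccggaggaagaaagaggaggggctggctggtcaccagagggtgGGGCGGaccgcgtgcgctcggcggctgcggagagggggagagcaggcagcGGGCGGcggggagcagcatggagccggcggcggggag

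It held 2 GC boxes and none of the other motifs. The p16 interval (chr9:21971001-21977780) had folds of 19.3, 16.5 and 16.2 in WT and 15.7, 14.9 and 17.0 in CREBBP-KO, which overlapped. Its percentiles were 97.4, 96.0 and 94.9 in WT and 94.4, 92.4 and 94.0 in CREBBP-KO, which did not (exact permutation p = 0.1, and p = 1 when ranked by -log10 p). The summit lay 103 to 356 bp downstream of the p16 start in all 6 libraries. The shift of -0.41 ± 0.16 (SE, limma adjusted p = 0.049) passed in 1 of 14 alternatives, the fit without WT replicate 3.

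Between the p16 and ARF starts, an interval 12.4 kb upstream of p16 (chr9:21985607-21992040) had folds of 19.0, 14.2 and 12.9 in WT and 12.5, 12.5 and 11.3 in CREBBP-KO. It ranked lower by -0.61 ± 0.19 (SE, limma adjusted p = 0.014), and its percentiles overlapped. The call was lost without WT replicate 1, where the shift was -0.40 (limma adjusted p = 0.11), and without CREBBP-KO replicate 3. It was also lost when ranked by -log10 p (-0.34, limma adjusted p = 0.12), with uncentred log2 folds (-0.32, limma adjusted p = 0.081) and in limma without trend (limma adjusted p = 0.053). The ARF promoter (chr9:21992882-21996607) had folds of 11.6, 12.8 and 14.0 in WT and 10.1, 12.5 and 10.5 in CREBBP-KO and did not pass (shift -0.44, 95% interval -0.81 to -0.06, limma adjusted p = 0.062).

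The CDKN2B promoter (chr9:22006508-22010002) had folds of 11.7, 11.6 and 10.6 in WT and 9.83, 14.4 and 11.5 in CREBBP-KO, with percentiles of 84.9 to 88.5 and 85.2 to 91.8 that overlapped (exact permutation p = 0.8). Its shift was -0.09 (95% interval -0.47 to 0.30). Upstream, in the antisense gene CDKN2B-AS1, which encodes the long RNA ANRIL, an interval 20.9 kb from the start ranked lower (chr9:22029231-22030844). Folds there were 11.0, 6.40 and 5.40 in WT and 3.93, 5.66 and 3.99 in CREBBP-KO, so that CREBBP-KO replicate 2 lay above WT replicate 3. The shift was -1.26 ± 0.35 (SE, limma adjusted p = 0.0080), and it was lost without WT replicate 1, the highest library, where it was -0.77 (limma adjusted p = 0.10). The interval passed the fold filter through WT alone, and with no fold filter the shift was -0.89 (limma adjusted p = 0.017). Peaks covered 18.7 to 19.2 kb of the CDKN2B window in WT, against 16.8 to 18.0 kb in CREBBP-KO, without overlap (exact permutation p = 0.1).

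CDKN2B-AS1, chr9:22030140-22030340, lower: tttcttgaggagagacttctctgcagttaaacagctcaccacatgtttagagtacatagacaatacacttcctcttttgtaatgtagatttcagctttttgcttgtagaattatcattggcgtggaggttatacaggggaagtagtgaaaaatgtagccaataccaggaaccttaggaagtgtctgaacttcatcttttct

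This window (hg38, plus strand) is shown as a distal site within the antisense gene; all its runs of 24 bases were found once and it held no motif.

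RB1, the pocket protein that blocks E2F, had the highest WT promoter of the 10 genes. The promoter interval (chr13:48302205-48307015) had folds of 27.4, 24.3 and 27.7 in WT and 23.4, 22.3 and 18.6 in CREBBP-KO, a mean of 26.5 ± 1.91 against 21.4 ± 2.55 (SD, n = 3). Every CREBBP-KO library lay below every WT library, at percentiles of 95.4 to 98.6 against 99.4 to 99.7 (exact permutation p = 0.1). The rank shift was -0.81 ± 0.18 (SE, limma adjusted p = 0.0015), and it fell short of the threshold when peaks were ranked by -log10 p (-0.16, limma adjusted p = 0.47) and passed under the other 13 alternatives. Summits lay within 365 bp of the canonical start in all 6 libraries.

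Near the end of the window, in the longest RB1 transcripts past the canonical gene end, a pair of distal intervals ranked lower. The stronger, 268 kb downstream of the start and also within the noncoding gene LINC01077 (chr13:48570584-48572930), had folds of 15.4, 16.2 and 14.5 in WT and 9.86, 9.58 and 9.87 in CREBBP-KO. The libraries were far apart relative to their spread, at 15.4 ± 0.86 against 9.77 ± 0.16 (SD, n = 3). The shift was -1.01 ± 0.17 (SE, limma adjusted p = 0.00015), the smallest p of the 55 intervals, and passed under all 14 alternatives. The interval beside it (chr13:48567075-48569124) had folds of 8.68, 6.52 and 6.67 in WT and 5.95, 3.47 and 4.83 in CREBBP-KO, with a shift of -1.22 ± 0.34 (SE, limma adjusted p = 0.0070) that was lost without WT replicate 1 (-0.99, limma adjusted p = 0.052). It passed the fold filter through WT alone, and with no fold filter the shift was -0.84 (limma adjusted p = 0.021). There the percentile of CREBBP-KO replicate 1 overlapped WT.

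RB1 window, chr13:48571508-48571708, lower: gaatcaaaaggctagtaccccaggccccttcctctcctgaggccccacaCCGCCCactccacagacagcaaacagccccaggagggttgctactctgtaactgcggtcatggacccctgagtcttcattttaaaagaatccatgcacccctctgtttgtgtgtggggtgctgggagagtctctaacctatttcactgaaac

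The summit window of the stronger site (hg38, plus strand) is printed because it carries the smallest adjusted p; it held 1 GC box, which 5.47% of distal windows hold, and no other motif. All its runs of 24 bases occurred once in hg38, and all 6 libraries had their highest summit inside it.

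Between these ends of the RB1 window 1 interval was called. The start of RCBTB2, a gene with RCC1 and BTB domains (chr13:48531535-48534039), ranked higher, with folds of 16.5, 13.8 and 16.9 in WT and 22.2, 22.9 and 21.8 in CREBBP-KO and a shift of 0.45 ± 0.16 (SE, limma adjusted p = 0.032). That call was lost without WT replicate 2, without each CREBBP-KO replicate, in limma without trend and when ranked by -log10 p (0.03, limma adjusted p = 0.88). The 4 tested intervals in intron 17, around the lysophosphatidic acid receptor gene LPAR6, had shifts of -0.25 to 0.10 and overlapping libraries. An interval 257 kb downstream of the start (chr13:48558773-48562128) had folds of 10.2, 5.75 and 5.35 in WT and 6.21, 5.16 and 4.89 in CREBBP-KO and did not pass (shift -0.66, 95% interval -1.36 to 0.04). The interval at 189 kb (chr13:48491378-48493447) had a shift of 0.39 (95% interval -0.19 to 0.98). Of the 37 intervals of the RB1 window 17 had a peak in a single library.

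**Figure D2:**
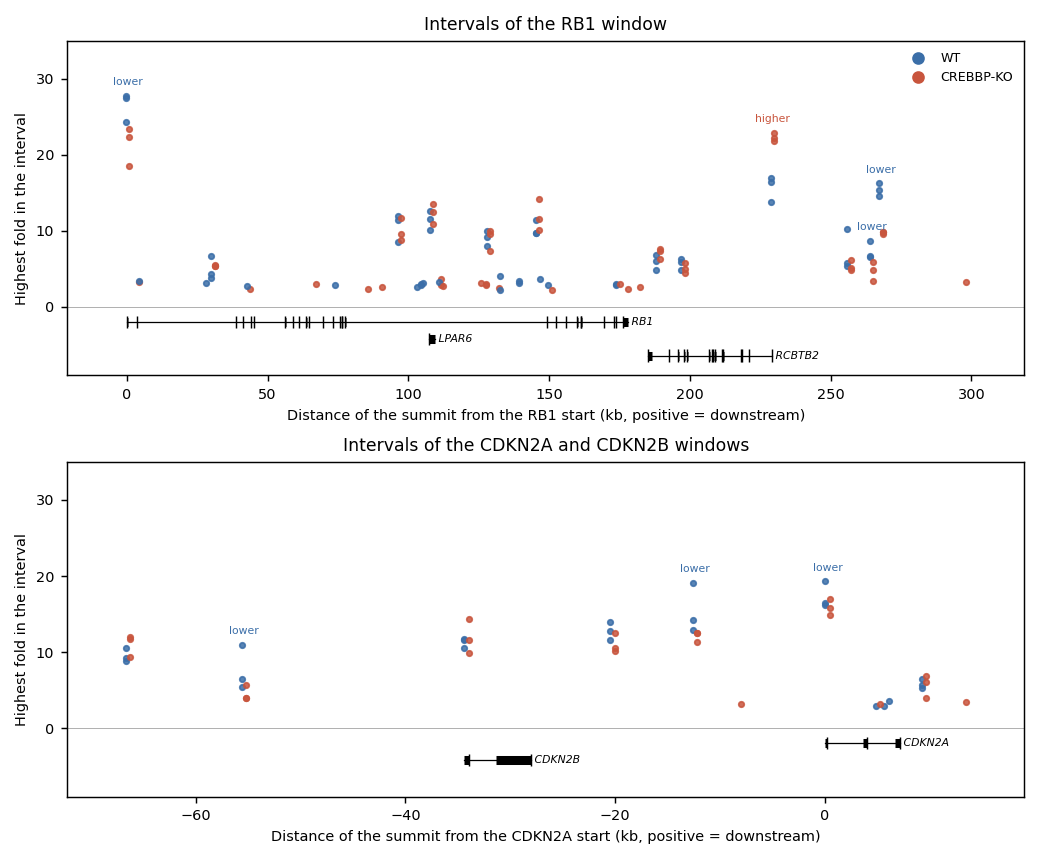
Highest fold of every interval in the RB1 window (top) and in the CDKN2A and CDKN2B windows (bottom), at the distance of its summit from the RB1 or CDKN2A start in kb (blue, WT; red, CREBBP-KO; groups drawn slightly apart). Black bars are exons of canonical transcripts and called intervals are labelled. The RB1 promoter (24.3 to 27.7 in WT) and the site at 268 kb (14.5 to 16.2 in WT) lie lower in CREBBP-KO. No interval of the bottom panel is called higher, where 18.6% of all tested intervals are.

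TERT had a single interval in its 102 kb window (chr5:1293398-1294989), with 1 peak in each of the 6 libraries. The folds were 5.55, 5.23 and 3.72 in WT and 6.19, 5.01 and 6.21 in CREBBP-KO, and the libraries overlapped. Its percentiles were 63.2, 60.3 and 36.2 in WT and 72.3, 61.8 and 69.3 in CREBBP-KO (mean 53.3 ± 14.8 against 67.8 ± 5.39, SD, n = 3; exact permutation p = 0.2). The shift was 0.36 (95% interval -0.30 to 1.02, limma adjusted p = 0.39).

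TERT promoter: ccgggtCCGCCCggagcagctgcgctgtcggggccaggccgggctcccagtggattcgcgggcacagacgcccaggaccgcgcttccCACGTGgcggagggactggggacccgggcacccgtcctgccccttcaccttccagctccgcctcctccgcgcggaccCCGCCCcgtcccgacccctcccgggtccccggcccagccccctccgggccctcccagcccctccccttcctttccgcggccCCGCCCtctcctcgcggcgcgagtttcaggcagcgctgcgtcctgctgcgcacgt

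The promoter (RefSeq, GRCh38.p14, chr5:1295019-1295318, minus strand), with 3 GC boxes and 1 E-box in 77.3% G and C, is printed because no peak reached it. The start-side edges of the peaks lay 79 to 172 bp inside the gene from the canonical start at 1295068. The start codon begins 79 bp inside, where the widest peak (CREBBP-KO replicate 1) ended to the base. All 6 peaks lay within the coding part of exon 1, intron 1 and exon 2, and 92.5% to 93.4% of their bases were exonic, against 9.63% of the bases of the canonical transcript. All 6 summits were in exon 2, and the other 14 of the 16 exons had no peak. The part of the added TERT copy in these peaks was not tested, and the input libraries were not analysed here.

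**Figure D3:**
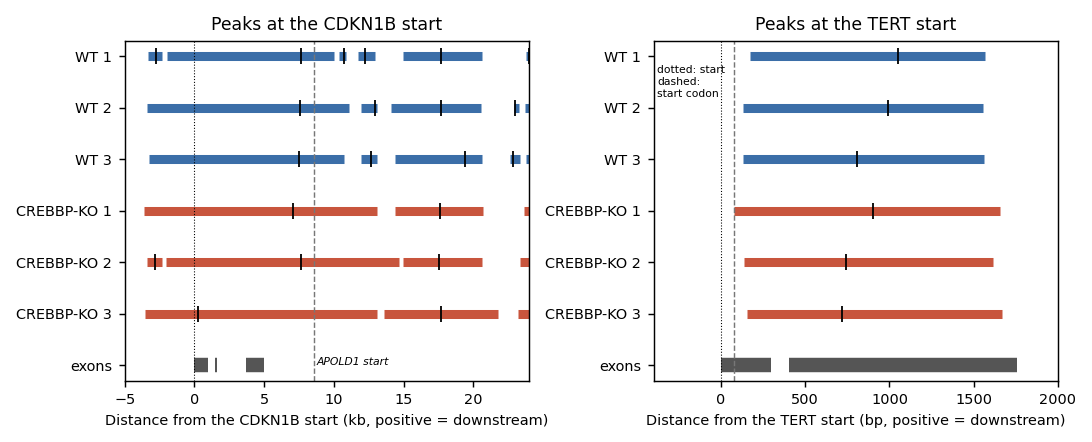
Extent of every peak around the CDKN1B start (left, kb) and the TERT start (right, bp) in each library (blue, 3 WT; red, 3 CREBBP-KO), with black ticks at the summits and grey bars for exons of the canonical transcripts. At CDKN1B the summit of the widest peak lies 7.09 to 7.66 kb downstream in 5 libraries and at 286 bp in CREBBP-KO replicate 3, and at TERT no peak extends past the start codon (dashed) towards the start (dotted).

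The TERT promoter percentile differed by 14.5 points within overlapping libraries, by 6.01 points without WT replicate 3, the lowest library, and by 9.54 points with lists of equal length. The 3 genes whose 6 promoter percentiles lay nearest to its own, by Euclidean distance over 6 libraries among 12142 genes, were NAPRT (11.5), FHOD3 (12.2) and RASGRF1 (12.6).

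Over the union of the windows, 1360 kb, peak numbers were 115, 116 and 102 in WT and 147, 131 and 122 in CREBBP-KO. The libraries did not overlap, with a difference of 22.3 peaks (exact permutation p = 0.1), and the difference was 5.00 when lists were cut to the length of the shortest, 9.00 with a -log10 q of 5 or more and 4.33 with a fold of 5 or more. Covered length was 246, 251 and 231 kb in WT and 245, 257 and 266 kb in CREBBP-KO (exact permutation p = 0.3). Of the 170 intervals 5 were found in each CREBBP-KO list and absent from each WT list, against 2.66% of all merged intervals, and 0 showed the reverse, against 1.08%. The CCND3 window had more covered sequence in every CREBBP-KO library, at 31.9, 32.4 and 31.4 kb in WT and 35.7, 35.1 and 35.2 kb in CREBBP-KO (exact permutation p = 0.1).

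Among 20 other genes of the G1/S transition, 19 had a tested interval at a start, of which 2 ranked higher, 1 lower and 16 did not pass (median shift 0.07). TFDP1, the partner of E2F proteins, ranked higher by 0.86 ± 0.19 (SE, limma adjusted p = 0.0012), and SKP2, the ubiquitin ligase subunit that targets p27, by 0.75 ± 0.27 (limma adjusted p = 0.034). E2F1 ranked lower by -0.80 ± 0.26 (SE, limma adjusted p = 0.017), while CDKN1C had no promoter peak. Among 12 telomerase and shelterin genes 11 were tested, 1 ranked higher, 1 lower and 9 did not pass (median shift 0.00). Over all start intervals the called shares were 25.9% higher and 8.98% lower.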

How the data were processed

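H3K27ac ChIP-seq was deposited as 1 narrow peak list per library; the 2 input libraries were not analysed here. Per the study, the authors ran an nf-core ChIP-seq pipeline on hg38 with MACS2, and the submitters' processing notes name BWA; whether the lists precede the downsampling of reads the study describes is not given in the sources used here. The deposited fold is a linear ratio over local background, the deposited significance is −log10 p and −log10 q (at least 1.30 in each list), and the deposited summit offset is a position in bases. All 24 chromosomes fitted the lengths of the reference, whose GENCODE release 44 gave genes and starts.

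Peaks were merged across the lists, ranked within each list, and fitted with limma 3.58.1 (R 4.3.3; lmFit, eBayes with trend) after the filter on fold. The test was checked on simulated shifts. Single values were compared by exact permutation tests (scipy 1.17.1), with no p adjusted over the 10 genes, although this adjustment was planned. The genes, lists and named intervals (all promoters, and distal intervals past the threshold) were chosen with earlier results of these data known. RefSeq promoters matched 8 of 10 genes. CCND1 and CCND2 had none, and the RB1 entry, which lies inside the gene, was not printed. Alternatives were other filters, rankings, scalings, windows, list lengths and libraries left out. For single called intervals, windows, list lengths and the −log10 q filter were not varied. Those settings were applied to other values, such as the counts of called intervals. Values for some listed genes and for a sequence are not reported here.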

Additional observations from a re-analysis of the deposited data

Results flagged for a closer look

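Of the 170 intervals in the windows, 5 were called in each CREBBP-KO list and in none of the WT lists. The share over all merged intervals was 2.66%. These 5 fell outside the rank test, which needs a peak in all 6 libraries. They lay in the CCND2 window (chr12:4330349-4332060, folds 2.61, 2.29 and 3.38), downstream of CDK6 (chr7:92602408-92603956, folds 3.93, 4.01 and 3.36) and in its intron 2 (chr7:92827382-92827968, folds 2.76, 3.16 and 3.34), and on either side of the canonical CDKN1B start. The upstream CDKN1B site (chr12:12703965-12704637), within the GENCODE body of the gene, had folds of 5.59, 4.86 and 4.54, the highest of the 5. The downstream site (chr12:12744554-12745873) had folds of 2.64, 2.88 and 2.74, and the CREBBP-KO lists held more peaks of low fold throughout.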

How the results depend on the processing

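Of 274 refits of the 20 called intervals, 209 kept direction and call, 65 kept direction only and 0 reversed. These refits did not vary windows, list lengths or the −log10 q filter. The count called higher, 10, was 4 when peaks were ranked by −log10 p and 5 to 9 with 1 library left out. The count called lower, 10, was 6 with a fold of 10 or more and 7 to 9 with 1 library left out. Deviations of same-numbered libraries correlated at 0.011, 0.014 and 0.028, and those of other pairs at -0.025 to 0.012. Such small values cannot show whether libraries were prepared in pairs, and the main fit used no pairing. With the replicate block 10 intervals were higher and 9 lower. The difference in peaks ranged from 15.5 to 28.0 and in covered length from 7.25 to 18.9 kb with 1 library left out. Of 100 alternatives for promoter percentiles 12 reversed, in CCND1, CCND2 and CDKN2B, whose differences of 0.26, 0.03 and 0.59 points lay within overlapping libraries. With lists of equal length these were -0.36, -0.67 and -1.51, and CCND2 was -0.95 ranked by −log10 p. With 1 library left out the ranges were -0.77 to 1.22, -0.996 to 0.65 and -1.41 to 1.87. Peak lists without counts or inputs leave depth, copy number and added CDK4 and TERT copies unresolved.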
